A study of Caenorhabditis elegans with 27 samples.

Results

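The comparison described here is the addition of a cbp-1 RNAi clone to cco-1 RNAi in the worm Caenorhabditis elegans, and it rests on 6 of the series' 27 libraries, chosen by their labels. The 3 libraries called cco-1 + cbp-1 came from worms fed 50% cco-1 clone, 25% cbp-1 clone and 25% empty vector (ev). The 3 libraries called cco-1 came from worms fed 50% cco-1 clone and 50% ev. The share of the cco-1 clone was therefore equal, and the cbp-1 clone took the place of part of the empty vector. All the worms were of the wild-type strain N2 and ate E. coli HT115 from the egg stage at 20 °C. They were collected after 2 days, at the L4 or young adult stage, and poly(A) RNA was sequenced from whole animals. The series' design text adds that the worms carried an hsp-6::GFP reporter, which the sample labels do not mention. Beside the main comparison stand 4 other groups of 3 libraries each, namely cbp-1 clone (no share given), ev, 50% mrps-5 with 25% cbp-1 and 25% ev, and 50% mrps-5 with 50% ev.

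In feeding RNAi, bacteria make double-stranded RNA of a worm gene, and worms that eat them lower the matching transcript. The gene cco-1, also called cox-5B, codes for part of cytochrome c oxidase (complex IV), and its loss disturbs the respiratory chain and turns on the mitochondrial unfolded protein response, in which nuclear genes for mitochondrial chaperones and proteases are induced. The gene cbp-1 encodes the worm counterpart of CBP and p300, which acetylate histones and other proteins and act as transcriptional coactivators. The comparison asks which transcripts differ when the cbp-1 clone is added to cco-1 RNAi.

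The 6 libraries held 25000342 to 30584399 gene counts each, and 8.71% to 9.73% of reads in them fell on the summary lines for reads without a single gene. Levels are CPM (gene counts scaled to a common library total) on library sizes scaled by trimmed means (TMM). Changes are log2 fold changes ± standard error, cco-1 + cbp-1 over cco-1, with 3 libraries in each group, and adjusted p-values come from edgeR's quasi-likelihood test with Benjamini-Hochberg adjustment over 16435 genes. A gene is said to have risen or fallen when that adjusted p was under 0.05. By that rule 21.9% of all tested genes rose and 25.3% fell, and each list count below is to be read beside these shares. Where a list below has 0 rises or 0 falls, DESeq2 gave 0 as well, and at an unadjusted p under 0.05 edgeR gave 0 in each except 1 fall among Mediator subunits and 1 rise among proteasome subunits. The labels do not say that replicates came from separate cultures, so each p-value reflects the spread among libraries alone, which may be technical. That spread was estimated within groups over all 27 libraries of the fit, including groups fed an atfs-1 clone that are not described here. In whole-worm RNA, fewer cells of a type and less RNA per cell cannot be told apart. The ribosomal gene rpl-37 split the libraries into sets, with 5.44 to 5.57 log2(CPM + 1) in cco-1 + cbp-1, 5.72 to 5.79 in cco-1, 5.49 to 5.86 in the mrps-5 groups, and 3.01 to 3.50 in the cbp-1 and ev groups. The main comparison therefore lies within 1 set, whereas levels in cbp-1 or ev worms beside those in cco-1 worms cross sets.

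The transcripts of the RNAi targets were lower in the mixture, by modest amounts. Reads from cbp-1 (III:9766509-9774825 on WBcel235, as are all positions here) stood at 275, 277 and 274 CPM in cco-1 + cbp-1 worms, against 317, 323 and 334 CPM in cco-1 worms. The groups did not overlap, and cbp-1 fell by 0.24 ± 0.06 on the log2 scale (edgeR adjusted p = 0.00377). Reads from cco-1 (I:9788725-9790050) were 104.9, 125 and 116 CPM in cco-1 + cbp-1 worms, against 170.1, 167 and 171 CPM in cco-1 worms. The targeted gene cco-1 was thus lower in every mixture library although the clone's share was equal, and it fell by 0.55 ± 0.12 (adjusted p = 0.000693). What part the lower cco-1 transcript has in the other changes was not tested, nor was whether counts over the targets include bacterial double-stranded RNA.

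The related genes cbp-2 and cbp-3 rose. The gene cbp-2 was at 47.2, 48.6 and 48.2 CPM in cco-1 + cbp-1 worms and at 10.96, 11.5 and 10.3 CPM in cco-1 worms, a rise of 2.14 ± 0.06 (adjusted p = 7.88e-30). Every mixture library was above every cco-1 library. F40F12.7, now named cbp-3, stood at 70.2, 72.0 and 75.1 CPM in the mixture and at 43.1, 43.7 and 40.1 CPM under cco-1, without overlap, a rise of 0.78 ± 0.05 (adjusted p = 3.7e-18). These genes are annotated at III:9923174-9924800 (cbp-2) and III:9913993-9924768 (F40F12.7) on the same strand and overlap each other, so how their reads were shared out is uncertain. Of 25 tested enzymes and readers of protein acetylation, cbp-1 and its relatives included, 12 (48%) rose and 2 (8%) fell (median 0.05), beside 21.9% and 25.3% of all genes. The histone deacetylase gene hda-5 rose by 1.22 ± 0.10 (adjusted p = 9.07e-14), and sir-2.3, a mitochondrial sirtuin gene, fell by 1.54 ± 0.12 (adjusted p = 5.91e-14). Of 27 tested subunits of the Mediator complex, which links transcription factors to RNA polymerase, 11 (40.7%) rose and 0 fell (median 0.09), although 1 fell when only the groups compared or the 18 libraries fed a mitochondrial clone were fitted, and the count of rises was 7 without cco-1 replicate 3 or without cco-1 + cbp-1 replicate 2. Its kinase-module subunit gene dpy-22 rose by 0.27 ± 0.07 (adjusted p = 0.00361).

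Changes were spread over the transcriptome, and most were small. Of the 16435 genes tested, 7761 (47.2%) passed the test, 3602 (21.9%) of them higher and 4159 (25.3%) lower in cco-1 + cbp-1 worms. The median change over all tested genes was -0.02, and the middle part of the distribution lay between -0.26 and 0.19 (its quartiles). Among the genes called, the median size of the change was 0.46, and 4110 (53.0%) changed by less than 0.5 in size. A change of at least 1 was seen in 794 rises (4.83%) and 1029 falls (6.26%), and of at least 2 in 284 rises (1.73%) and 316 falls (1.92%). With upper-quartile scaling the split of the calls turned, with 4177 higher and 3669 lower (53.2% higher, against 46.4% under TMM), while the median of all genes moved to 0.01. Small falls shared by many genes of a list should be read beside that shift.

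**Figure D1:**
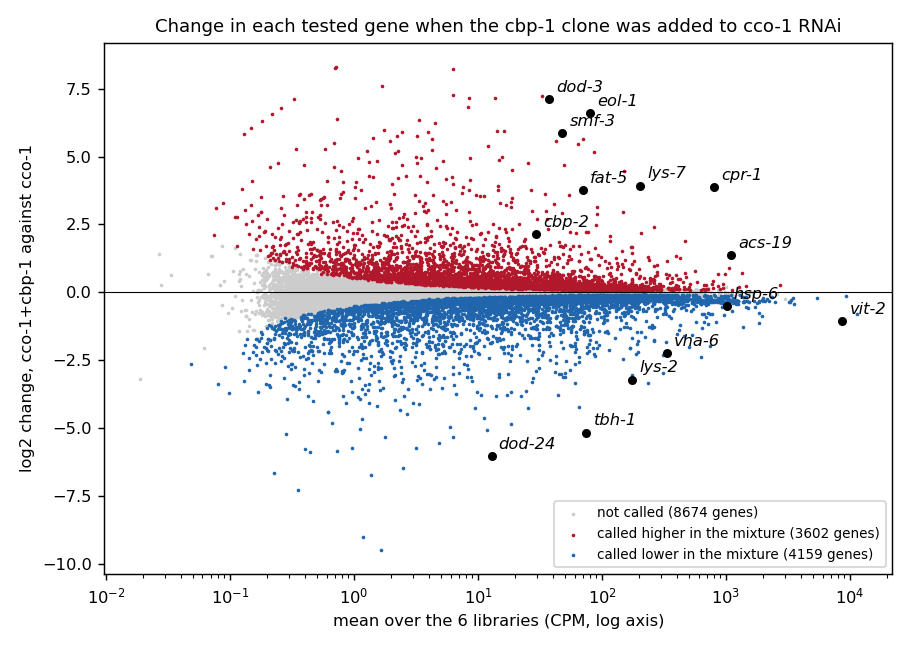
Each point is 1 tested gene, placed by its mean CPM over the 6 libraries (log axis) and its log2 change in cco-1 + cbp-1 over cco-1 worms. Red points were called higher (3602 genes), blue points lower (4159) and grey points neither, and the labelled genes include dod-3 at 7.12 and dod-24 at -6.03.

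The mitochondrial chaperone genes fell. The gene hsp-6, which encodes mitochondrial Hsp70 and is the usual reporter of the mitochondrial unfolded protein response, stood at 836, 846 and 836 CPM in cco-1 + cbp-1 worms, against 1164, 1178 and 1210.0 CPM in cco-1 worms. The groups were far apart relative to their spread, and hsp-6 fell by 0.50 ± 0.05 (adjusted p = 7.14e-12). The chaperonin gene hsp-60 was at 283, 294 and 286 CPM in the mixture and 476, 457 and 456 CPM under cco-1, and it fell by 0.69 ± 0.12 (adjusted p = 7.17e-05). The levels in cbp-1 worms were 606, 583 and 586 CPM of hsp-6, and those in ev worms 716, 749.9 and 713 CPM. The mixture thus lay above the ev worms and below the cco-1 worms for hsp-6, across the library sets. So it did for hsp-60, at 251, 276 and 276 CPM in ev worms. Other members lay below ev worms in the mixture. Y22D7AL.10 was at 110.9, 108.6 and 98.9 CPM in the mixture and 156.6, 159.7 and 163.8 CPM in ev worms. C34C12.8 was at 59.4, 57.1 and 55.7 CPM in the mixture and 60.2, 70.4 and 64.2 CPM in ev worms. Of the 12 measured chaperone and protease genes, 8 fell and 0 rose (median -0.36), and 0 changed by 1 or more.

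The remaining chaperone and protease genes ranged widely. Y22D7AL.10, a GroES-like co-chaperone gene, fell by 0.77 ± 0.06, C34C12.8, a GrpE-like exchange factor, by 0.58 ± 0.04, and the DnaJ gene dnj-10 by 0.49 ± 0.04. Among the proteases, spg-7 fell by 0.47 ± 0.06 and ppgn-1 by 0.21 ± 0.04, both members of the inner-membrane AAA family. K07A3.3 was close to the threshold, at 5.55, 5.32 and 5.84 CPM in the mixture and 6.87, 6.66 and 6.33 CPM under cco-1 (-0.25 ± 0.09, adjusted p = 0.028), and it lost its call under several alternatives. The matrix protease gene clpp-1 had a change of -0.10 ± 0.05 (adjusted p = 0.0662), and C34B2.6, the Lon protease gene lonp-1, one of -0.08 ± 0.04 (adjusted p = 0.0592). The gene ymel-1 had -0.02 ± 0.04 (adjusted p = 0.689), and D2030.2, the ClpX-like gene, had 0.14 ± 0.09 (adjusted p = 0.225) and was called higher when no filter on low counts was used or when only the groups compared or the 18 libraries fed a mitochondrial clone were fitted. Both clpp-1 and C34B2.6 passed the threshold under some alternatives. The genes spg-7 and ppgn-1 thus fell, while ymel-1, of the same AAA family, did not pass the test.

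Other genes used as reporters of mitochondrial stress mostly fell, several by much more. Of 18 tested, 13 fell and 4 rose (median -0.68), and 6 of the falls were of 2 or more. Of the rises, 3 were of 1 or more, and the largest was that of irg-1 (1.84), described further below. The cytochrome P450 gene cyp-14A4 was at 4.75, 4.93 and 5.24 CPM in cco-1 + cbp-1 worms, against 49.4, 50.2 and 48.8 CPM in cco-1 worms (-3.31 ± 0.07, adjusted p = 1.6e-33). The C-type lectin gene clec-4 stood at 11.6, 8.97 and 10.4 CPM, against 92.1, 89.1 and 90.7 CPM (-3.13 ± 0.07, adjusted p = 2.1e-32). F22B3.7 was at 1.50, 1.04 and 1.23 CPM, against 38.3, 34.96 and 34.6 CPM (-4.84 ± 0.11, adjusted p = 3.83e-32). In none of these did the groups overlap, and the mixture libraries were far below the cco-1 libraries. The gene B0205.13, singled out after its values were seen, went the other way, at 190.2, 191 and 206 CPM in the mixture and 101.04, 95.4 and 88.5 CPM under cco-1 (1.04 ± 0.05, adjusted p = 1.38e-17). In ev worms it was at 2.31, 2.51 and 2.86 CPM. Another gene chosen after its values were seen, acs-2, which encodes an acyl-CoA synthetase, fell by 0.40 ± 0.06 (adjusted p = 7.94e-06).

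**Figure D2:**
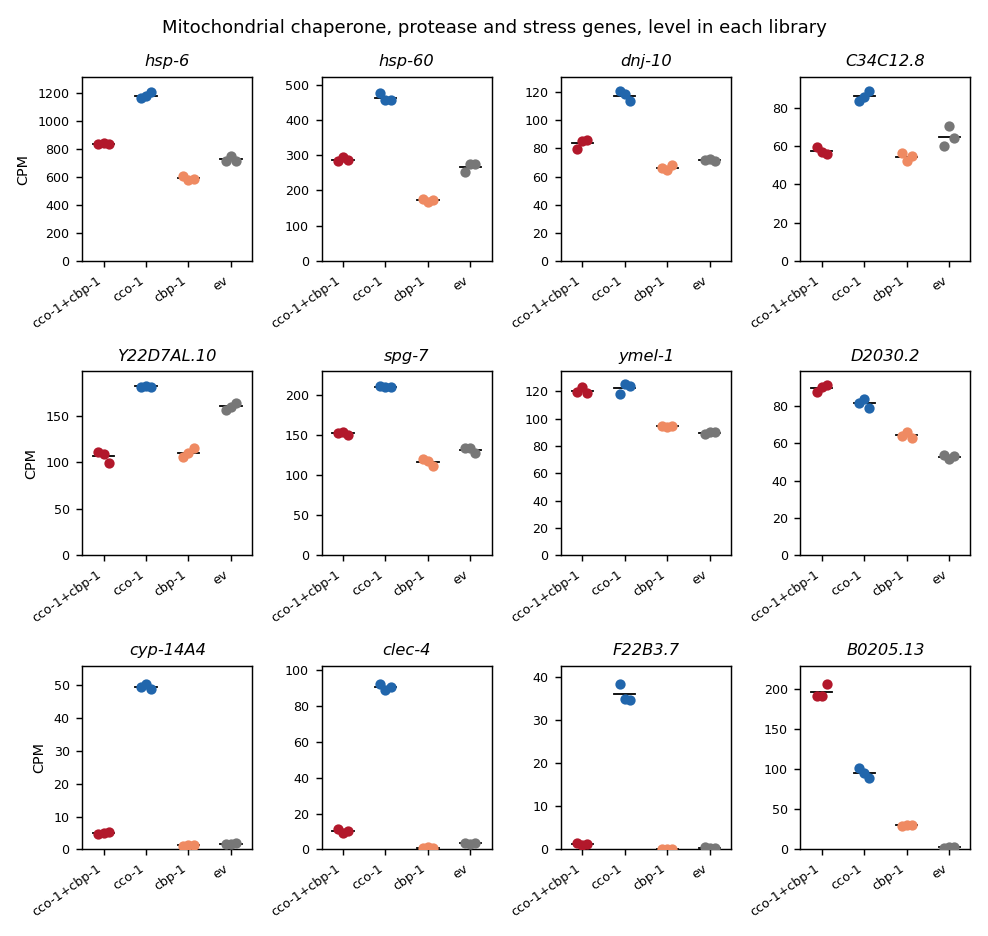
Levels of 12 chaperone, protease and stress genes in each library, in CPM on a linear axis from 0, for cco-1 + cbp-1, cco-1, cbp-1 and ev worms (3 points each, line at the mean). For hsp-6 the mixture libraries sit at 836 to 846 CPM, below all cco-1 libraries, and for B0205.13 they sit above them.

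The regulators of the response moved less. Of 15 tested, 3 (20%) rose and 5 (33.3%) fell (median 0.04), beside 21.9% and 25.3% of all genes. With so few genes, these shares do not set the list apart. The falls were 3 with upper-quartile scaling, and 1 gene rose without cco-1 replicate 3. The bZIP gene zip-3, a negative regulator of the response, stood at 19.2, 18.001 and 16.9 CPM in the mixture and 41.6, 41.1 and 42.0 CPM under cco-1, and it fell by 1.2 ± 0.05 (adjusted p = 4.63e-22). The homeodomain gene dve-1 fell by 0.39 ± 0.07 (adjusted p = 3.33e-05) and the histone methyltransferase gene met-2 by 0.22 ± 0.06 (adjusted p = 0.0037), and haf-1, a mitochondrial peptide exporter gene, rose by 0.28 ± 0.09 (adjusted p = 0.00994), a call lost without cco-1 replicate 3. The gene of the main transcription factor of the response, atfs-1, was at 102, 104.3 and 100.7 CPM in the mixture and 99.8, 98.3 and 99.4 CPM under cco-1 (0.05 ± 0.04, adjusted p = 0.307). The mixture libraries were all slightly higher, but the difference did not pass the test.

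Nuclear genes for the mitochondrial proteome fell together by small amounts. Of 17 tested genes of mitochondrial protein import, 14 fell and 0 rose (median -0.40), led by the processing peptidase gene mppa-1 (-0.88 ± 0.04, adjusted p = 1.66e-20). Of 54 nuclear genes of oxidative phosphorylation, 47 fell and 0 rose (median -0.26), over a range of -0.52 (ucr-2.2) to -0.06 (ucr-2.3). The complex I gene gas-1 was at 127, 134 and 130.3 CPM in the mixture, against 174, 176 and 174 CPM under cco-1. Of 69 mitochondrial ribosome genes, 50 fell and 1 rose (median -0.22), and mrps-14 fell most, by 0.70 ± 0.04 (adjusted p = 8.48e-18). Of 30 tricarboxylic acid and glyoxylate cycle genes, 21 fell and 1 rose (median -0.15). The exception was icl-1, the bifunctional glyoxylate enzyme gene, singled out after its value was seen, which rose by 0.44 ± 0.05 (adjusted p = 4.11e-10). Of the 12 mitochondrially encoded genes, 4 (33.3%) fell and 0 rose (median -0.28), beside 25.3% and 21.9% of all genes. With so few genes, the share of falls does not set this list apart. The count of falls was 9 without a filter on low counts and 2 without cco-1 replicate 2 or without cco-1 + cbp-1 replicate 1. The gene nduo-6 was at 4.81, 4.40 and 5.37 CPM in the mixture and 6.91, 6.86 and 7.56 CPM under cco-1. It lost its call under RLE and upper-quartile scaling, under the replicate block, and without any 1 of the 6 libraries.

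The cytosolic protein machinery shared part of this pattern. Of 83 cytosolic ribosome genes, 74 fell and 0 rose (median -0.33), in a narrow range of -0.65 to -0.13, and they summed to 65098 to 66669.9 CPM in cco-1 + cbp-1 libraries and to 80411 to 84081 CPM in cco-1 libraries. Of 33 proteasome genes, 14 fell and 0 rose (median -0.08), a count that was 9 with upper-quartile scaling and 8 without a filter. With upper-quartile scaling, or with fewer libraries fitted, 1 proteasome gene rose. Of 16 cytosolic heat shock genes, 9 fell and 2 rose (median -0.34). The small heat shock gene hsp-16.2 was at 3.002, 3.86 and 3.48 CPM in the mixture and 16.6, 13.8 and 15.3 CPM under cco-1 (-2.14 ± 0.09, adjusted p = 4.98e-23), and hsp-16.41 was lower by a like amount (-2.07 ± 0.11, adjusted p = 5.03e-18). The third tested hsp-16 gene, hsp-16.48, left out of the list because its name matched 2 genes and added after its value was seen, rose by 0.94 ± 0.11 (adjusted p = 1.03e-09). The hsp-16 genes have near-identical copies, so their reads may be split among them. The count of heat shock rises was 5 without a filter or with fewer libraries fitted. In contrast, of 18 genes of the endoplasmic reticulum stress response, 14 rose and 0 fell (median 0.18). Among them the BiP gene hsp-4 stood at 656, 673 and 661 CPM in the mixture, against 506, 511 and 517 CPM under cco-1 (0.37 ± 0.03, adjusted p = 1.04e-12). The disulfide isomerase gene pdi-3 rose by 0.41 ± 0.03 (adjusted p = 3.76e-14) and dnj-27, a luminal DnaJ gene, by 0.52 ± 0.05 (adjusted p = 2.2e-11).

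A large group of strong rises was the pals family, a worm gene family of which many members are induced by intracellular pathogens such as microsporidia and viruses. Of 34 tested pals genes, 28 rose and 1 fell (median 3.61), against 21.9% and 25.3% of all genes. Summed over the family, levels were 373 to 409.8 CPM in cco-1 + cbp-1 libraries and 65.6 to 70.9 CPM in cco-1 libraries. The gene C17H1.6, named pals-5 and widely used as a reporter of the intracellular pathogen response, was at 16.51, 16.3 and 17.4 CPM in the mixture, against 0.0780, 0.118 and 0.141 CPM under cco-1 (7.15 ± 0.17, adjusted p = 2.32e-31). F22G12.1, named pals-14, stood at 87.2, 97.3 and 95.3 CPM, against 1.64, 1.58 and 1.37 CPM (5.93 ± 0.07, adjusted p = 6.66e-41). Both were scarce in every cco-1 library and clearly detected in every mixture library. The genes that control this response moved less. C29F9.1, the repressor gene pals-22, rose by 0.98 ± 0.10 (adjusted p = 1.44e-10) and T17A3.2, its antagonist pals-25, by 0.34 ± 0.11 (adjusted p = 0.00763). The member that fell, Y82E9BR.4 (pals-16), had a change of -0.72 ± 0.14 (adjusted p = 6.72e-05).

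Outside the pals family, several other genes rose strongly. The gene eol-1, related to the decapping exonuclease DXO, was at 149.6, 163 and 162 CPM in cco-1 + cbp-1 worms, against 1.79, 1.73 and 1.34 CPM in cco-1 worms (6.61 ± 0.08, adjusted p = 2.76e-41). F26F2.1 stood at 26.1, 27.98 and 28.02 CPM, against 0.195, 0.197 and 0.176 CPM (7.14 ± 0.14, adjusted p = 1.35e-33), and F26F2.3 rose by 6.84 ± 0.17 (adjusted p = 3.02e-30). The pathogen response gene irg-1, also in the list of mitochondrial stress reporters and chosen after its value was seen, rose by 1.84 ± 0.12 (adjusted p = 8.03e-17). Some strong rises, those of pals genes included, were of neighbouring genes. The longest run of adjacent tested genes that all rose by 2 or more lay within the pals family described above. It held 11 genes of C17H1 and F22G12.1 at I:13104251-13141898, with changes of 2.63 to 8.30. Another run held 7 genes of B0507 at V:8746158-8766038, and another held 6 genes, abf-4 and 5 of F26F2, at V:20557876-20574152. Of the 283 rises of at least 2 with a position, 93 (32.9%) had an adjacent tested gene that also rose by 2 or more, and so did 83 of 313 falls (26.5%) with a like neighbour. Chromosome V held 126 rises and 114 falls of that size, 3.82% and 3.46% of its 3296 tested genes. The other nuclear chromosomes had 0.662% to 1.49% rises and 0.612% to 2.25% falls.

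The F-box genes of the fbxa family, which encode putative adaptors of ubiquitin ligases, moved in both directions with more rises. Of 169 tested, 62 rose and 25 fell (median 0.20). The largest named rise of the comparison, fbxa-75, was at 10.6, 13.8 and 13.3 CPM in the mixture and at 0.0390, 0 and 0.0704 CPM under cco-1. In counts that is 1212 over the 3 mixture libraries and 3 over the 3 cco-1 libraries, a ratio of 361 with an exact 95% interval of 123 to 1752 that covers counting error only. The gene fbxa-158 rose by 3.56 ± 0.10 (adjusted p = 1.22e-28) and fbxa-182 by 1.72 ± 0.06 (adjusted p = 3.74e-26). 

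Genes of antibacterial defence changed in both directions. Of 68 lysozyme, thaumatin and antimicrobial peptide genes, 33 rose and 22 fell (median 0.25). The lysozyme gene lys-7 was at 378, 379.5 and 388 CPM in cco-1 + cbp-1 worms, against 23.8, 26.4 and 24.9 CPM in cco-1 worms (3.93 ± 0.05, adjusted p = 1.98e-40). Its relative lys-2 moved the other way, at 34.9, 33.2 and 34.7 CPM, against 316, 319 and 315 CPM (-3.21 ± 0.05, adjusted p = 1.58e-38). Within this family of 9 tested lys genes, 5 rose and 3 fell. The genes dod-3 and dod-24, both found downstream of the transcription factor DAF-16, were the extremes of the list. The gene dod-3 stood at 79.9, 71.6 and 71.2 CPM in the mixture and 0.741, 0.434 and 0.422 CPM under cco-1 (7.12 ± 0.19, adjusted p = 4.28e-18). The gene dod-24 was at 0.398, 0.238 and 0.530 CPM, against 25.2, 26.3 and 24.4 CPM (-6.03 ± 0.15, adjusted p = 1.26e-30). Of 156 C-type lectin genes, which encode carbohydrate-binding proteins, 29 rose and 79 fell (median -0.67). The lectin gene clec-5 rose by 4.46 ± 0.05 (adjusted p = 2.76e-41), and clec-17 fell by 4.94 ± 0.15 (adjusted p = 5.54e-28).

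**Figure D3:**
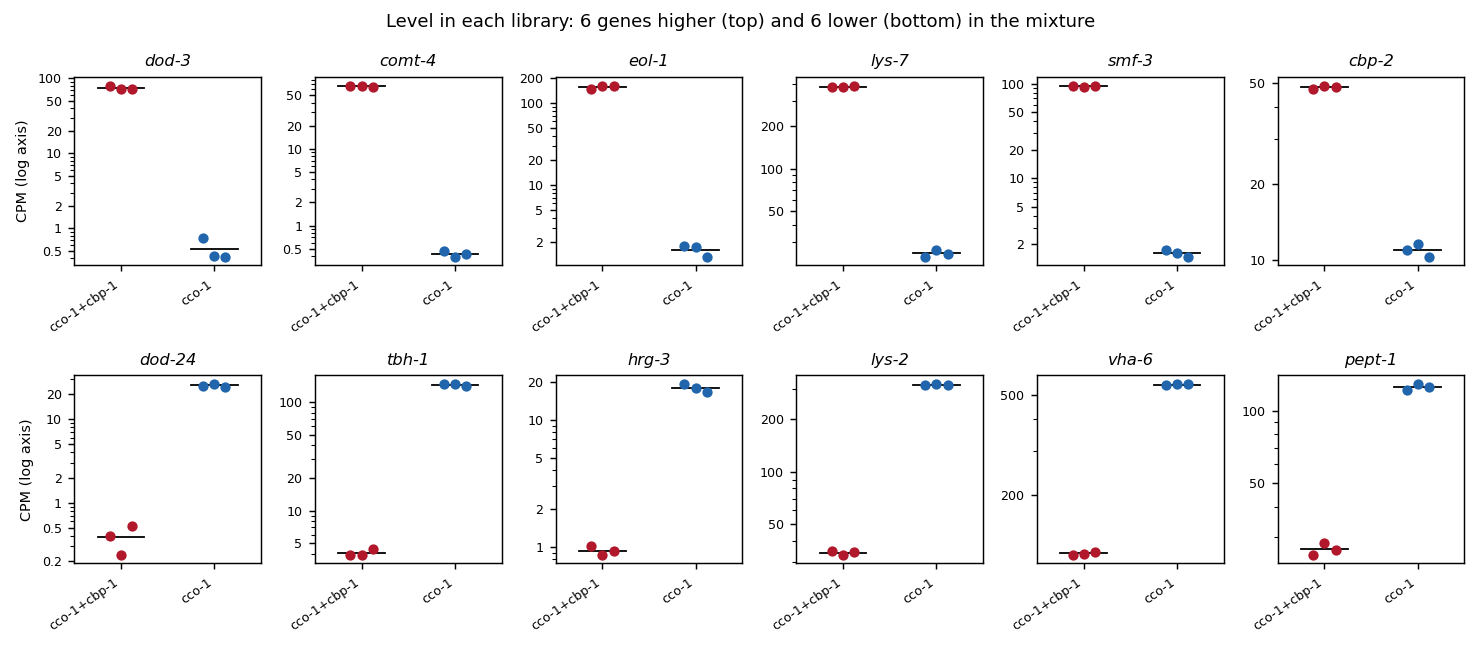
Levels in each library of 6 genes that rose (top) and 6 that fell (bottom), in CPM on log axes, for cco-1 + cbp-1 (red, left) and cco-1 worms (blue, right), with a line at each mean. In all 12 the groups do not overlap, and for lys-7 the mixture libraries lie at 378 to 388 CPM.

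Many transcripts of the gut fell. Of 20 intestinal marker genes, 15 fell and 3 rose (median -0.61), and they summed to 2657 to 2764 CPM in cco-1 + cbp-1 libraries and 5097 to 5544 CPM in cco-1 libraries. The peptide transporter gene pept-1 was at 25.2, 28.2 and 26.5 CPM in the mixture, against 122, 129 and 125 CPM under cco-1 (-2.24 ± 0.04, adjusted p = 1.85e-34). The gene vha-6, a subunit of the proton pump of the gut's apical membrane, stood at 116, 118 and 119.8 CPM, against 546, 553 and 551 CPM (-2.22 ± 0.04, adjusted p = 2.67e-35). It was the extreme of the vha family, in which 17 of 20 fell (median -0.32). The transcription factor genes of the intestine, chosen after their values were seen, did not follow. The main gut factor gene elt-2 was at 14.1, 15.1 and 14.4 CPM in the mixture and 12.83, 14.8 and 13.1 CPM under cco-1 (0.10 ± 0.07, adjusted p = 0.216), and the groups overlapped. Its partner elt-7 rose by 0.62 ± 0.09 (adjusted p = 2.39e-07). Whether the amount of gut tissue or its RNA has a part in the other changes was not tested.

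Most gut proteases fell, and some rose. Of 22 tested, 16 fell and 5 rose (median -1.28). Of 15 aspartyl protease (asp) genes, 12 fell and 2 rose (median -1.81), and asp-2 stood at 143, 141 and 148 CPM in the mixture, against 506.9, 504 and 509 CPM under cco-1. The cathepsin B-like (cpr) genes were split, with 3 of 6 higher and 3 lower. The gene cpr-1 was at 1573, 1426 and 1503 CPM, against 94.6, 109 and 103 CPM (3.88 ± 0.05, adjusted p = 1.98e-39), and cpr-3 rose by 2.89 ± 0.05 (adjusted p = 9.1e-37). The serine carboxypeptidase genes ctsa-1 and F13D12.6 were among the 12 largest falls of genes with a mean of at least 5 CPM and groups that did not overlap. F13D12.6 stood at 7.20, 6.54 and 6.40 CPM in the mixture, against 118, 128 and 128 CPM under cco-1 (-4.22 ± 0.08, adjusted p = 5.07e-25). The lysosomal cathepsin L gene cpl-1 fell by 0.78 ± 0.04 (adjusted p = 2.45e-19).

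Genes that handle metals and heme gave some of the clearest contrasts. Of 18 genes of iron, heme and hypoxia, 6 rose and 10 fell (median -0.33). The divalent metal importer gene smf-3 was at 94.3, 92.6 and 95.1 CPM in cco-1 + cbp-1 worms, against 1.76, 1.62 and 1.48 CPM in cco-1 worms (5.86 ± 0.07, adjusted p = 1.17e-40). The ferritin gene ftn-1, chosen after its value was seen, was at the other end, with 2 counts over the 3 mixture libraries and 114 over the 3 cco-1 libraries, a ratio of 0.0157 with an exact 95% interval of 0.00187 to 0.0579. The second ferritin gene ftn-2, also chosen so, stood at 175, 169 and 171 CPM in the mixture and 129, 133 and 138 CPM under cco-1, a rise of 0.36 ± 0.04 (adjusted p = 3.59e-09). The importer gene smf-3 and the ferritin gene ftn-1 were thus at opposite ends, with ftn-1 near 0 in all mixture libraries, while ftn-2 moved little.

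The heme-responsive hrg genes fell in the main, with 4 of 6 lower and 1 higher. The heme importer genes hrg-1 and hrg-4 fell by 2.96 ± 0.06 (adjusted p = 3.46e-34) and by 3.77 ± 0.10 (adjusted p = 1.18e-29), and hrg-3, whose peptide carries heme between tissues, was at 1.01, 0.861 and 0.928 CPM in the mixture and 19.2, 17.97 and 16.54 CPM under cco-1 (-4.25 ± 0.13, adjusted p = 6.34e-28). The protease gene asp-10, now hrg-7, which signals in heme balance, fell by 2.37 ± 0.05 (adjusted p = 3.14e-34). Metallothioneins, small metal-binding proteins, split. The gene mtl-1 stood at 28.6, 28.2 and 28.2 CPM in the mixture, against 0.936, 1.22 and 0.774 CPM under cco-1 (4.86 ± 0.11, adjusted p = 2.32e-31), and mtl-2 at 9.56, 9.24 and 9.02 CPM, against 25.6, 22.3 and 23.04 CPM (-1.35 ± 0.07, adjusted p = 6.67e-19).

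Yolk genes fell, and genes of fat metabolism moved in both directions. All 6 vitellogenin genes, whose products are the yolk proteins that the gut makes for oocytes, fell (median -0.92), and they summed to 15873 to 16242 CPM in cco-1 + cbp-1 libraries and 28113 to 30921 CPM in cco-1 libraries. The gene vit-2 was at 5653, 5590.2 and 5572 CPM in the mixture, against 11079.7, 11834 and 12107 CPM under cco-1 (-1.06 ± 0.04, adjusted p = 1.08e-22). Vitellogenin genes share long similar stretches, so reads of vit-3, vit-4 and vit-5 may be shared out among them. Of 19 desaturase and elongase genes, 13 fell and 4 rose (median -0.40). The oleate desaturase gene fat-2 stood at 204, 206 and 211 CPM in the mixture, against 589.6, 609 and 605 CPM (-1.54 ± 0.03, adjusted p = 9.26e-33). Of the genes for the first desaturation step, chosen after their values were seen, fat-6 and fat-7 fell, by 0.26 ± 0.04 (adjusted p = 2.37e-07) and 1.33 ± 0.13 (adjusted p = 4.99e-11). The third, fat-5, which prefers palmitate, was at 136, 128 and 128 CPM in the mixture and 8.27, 9.81 and 10.7 CPM under cco-1 (3.76 ± 0.11, adjusted p = 8.37e-17). Among acyl-CoA synthetases and carnitine palmitoyltransferases, 10 of 28 rose and 11 fell (median -0.10), and their sum was 3705 to 3766 CPM in cco-1 + cbp-1 libraries and 2958 to 3049 CPM in cco-1 libraries. Among lipases and lipid-binding proteins, 10 of 22 rose and 8 fell (median 0.03), with sums of 5584 to 5734 CPM in the mixture and 4609 to 4790.2 CPM under cco-1. The abundant acs-19, of the acetyl-CoA synthetase type, stood at 1596, 1559 and 1573 CPM, against 613, 593 and 615 CPM (1.38 ± 0.04, adjusted p = 5.74e-30). Its rise in CPM was larger than that of the summed acyl-CoA synthetases and carnitine palmitoyltransferases. The higher sum of that list therefore rests on acs-19 and does not describe its other members. The gene pod-2, which encodes the acetyl-CoA carboxylase that starts fatty acid synthesis, rose by 0.73 ± 0.05 (adjusted p = 2.63e-17). Of 12 genes of propionate breakdown, 7 fell and 2 rose (1 rose without any 1 library other than cco-1 replicate 1), and acdh-1, the dehydrogenase gene of its alternative route, was at 29.1, 27.95 and 31.4 CPM, against 142, 151 and 136 CPM (-2.28 ± 0.12, adjusted p = 3.05e-12).

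Detoxification genes were mixed. Of 69 cytochrome P450 genes 24 rose and 29 fell (median -0.02), of 63 UDP-glucuronosyltransferase genes 17 rose and 38 fell (median -0.43), and of 47 glutathione transferase genes 20 rose and 13 fell (median 0.35). In the cyp-13A family, 7 of 10 fell and 1 rose. Its member cyp-13A7 was at 0.398, 0.297 and 0.199 CPM in the mixture, against 12.95, 11.98 and 11.8 CPM under cco-1 (-5.32 ± 0.17, adjusted p = 1.58e-26). By contrast, cyp-14A5 stood at 135, 134 and 134 CPM, against 10.4, 10.2 and 9.22 CPM (3.76 ± 0.05, adjusted p = 1.98e-40). In the autophagy and lysosome list, 18 of 50 (36%) rose and 19 (38%) fell, and the autophagy genes lgg-1 and sqst-1, which encode the ubiquitin-like Atg8 protein and a cargo receptor, rose by 0.68 ± 0.04 (adjusted p = 5.03e-18) and 0.93 ± 0.04 (adjusted p = 7.31e-23).

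A gene of amine signalling was among the largest falls. The gene tbh-1 encodes tyramine beta-hydroxylase, which makes octopamine, the invertebrate counterpart of noradrenaline. It was at 3.92, 3.89 and 4.41 CPM in cco-1 + cbp-1 worms, against 148, 148 and 142 CPM in cco-1 worms, and it fell by 5.16 ± 0.05 (adjusted p = 1.24e-43). The gene of the step before it, tdc-1, chosen after its value was seen, was at 224, 218 and 229 CPM, against 235.2, 231 and 243 CPM (-0.08 ± 0.03, adjusted p = 0.0542). It passed the threshold under several alternatives with a change of at most 0.10 in size, so the step that makes tyramine and the step that uses it differed greatly in transcript change. A methyltransferase gene of the catechol-O-methyltransferase family, comt-4, was at 66.5, 65.6 and 63.3 CPM in the mixture and 0.468, 0.394 and 0.422 CPM under cco-1 (7.23 ± 0.12, adjusted p = 1.33e-36). Of 130 neuropeptide and insulin genes, 30 (23.1%) rose and 15 (11.5%) fell (median 0.14). The share of rises was near the 21.9% of all genes, and that of falls was below the 25.3% of all genes. The count of rises was 19 without cco-1 replicate 3 and 18 without cco-1 + cbp-1 replicate 1. The largest of these rises were antimicrobial peptide genes of the skin, such as nlp-29, at 17.8, 15.7 and 19.5 CPM, against 1.01, 2.05 and 1.37 CPM (3.58 ± 0.13, adjusted p = 1.92e-23), and nlp-34 (4.49 ± 0.13, adjusted p = 1.21e-22).

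The lists of small-RNA pathways and of chromatin held more rises than falls. Of 38 RNA interference genes, 14 (36.8%) rose and 3 (7.89%) fell (median 0.09), or 5 fell when fewer libraries were fitted. The shares over all genes were 21.9% and 25.3%. The worm-specific Argonaute genes sago-2 and ppw-1 stood out, the first at 48.9, 52.6 and 49.7 CPM in the mixture and 16.9, 19.03 and 18.7 CPM under cco-1 (1.47 ± 0.05, adjusted p = 1.67e-25). ppw-1 was at 126, 127 and 127 CPM, against 62.1, 62.7 and 62.5 CPM (1.02 ± 0.04, adjusted p = 2.14e-23), and rrf-2, a gene of the RNA-dependent RNA polymerase family, rose by 1.48 ± 0.06 (adjusted p = 1.39e-23). The gene sid-2, chosen after its value was seen, which takes up double-stranded RNA from the gut lumen, rose by 0.94 ± 0.08 (adjusted p = 1.35e-13). Of 33 histone genes 22 rose and 1 fell (median 0.51), and 11 rose under the stricter filter, which tests fewer of them. Most histone messages lack a poly(A) tail and histone genes have near-identical copies, so these counts cover a small and partly shared part of histone RNA. The H2A gene his-35 was at 49.9, 50.2 and 49.1 CPM in the mixture and 33.9, 36.9 and 35.7 CPM under cco-1 (0.49 ± 0.06, adjusted p = 4.11e-09). Of 198 nuclear hormone receptor genes, 72 (36.4%) rose and 43 (21.7%) fell (median 0.14), the falls being near the share of all genes.

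**Figure D4:**
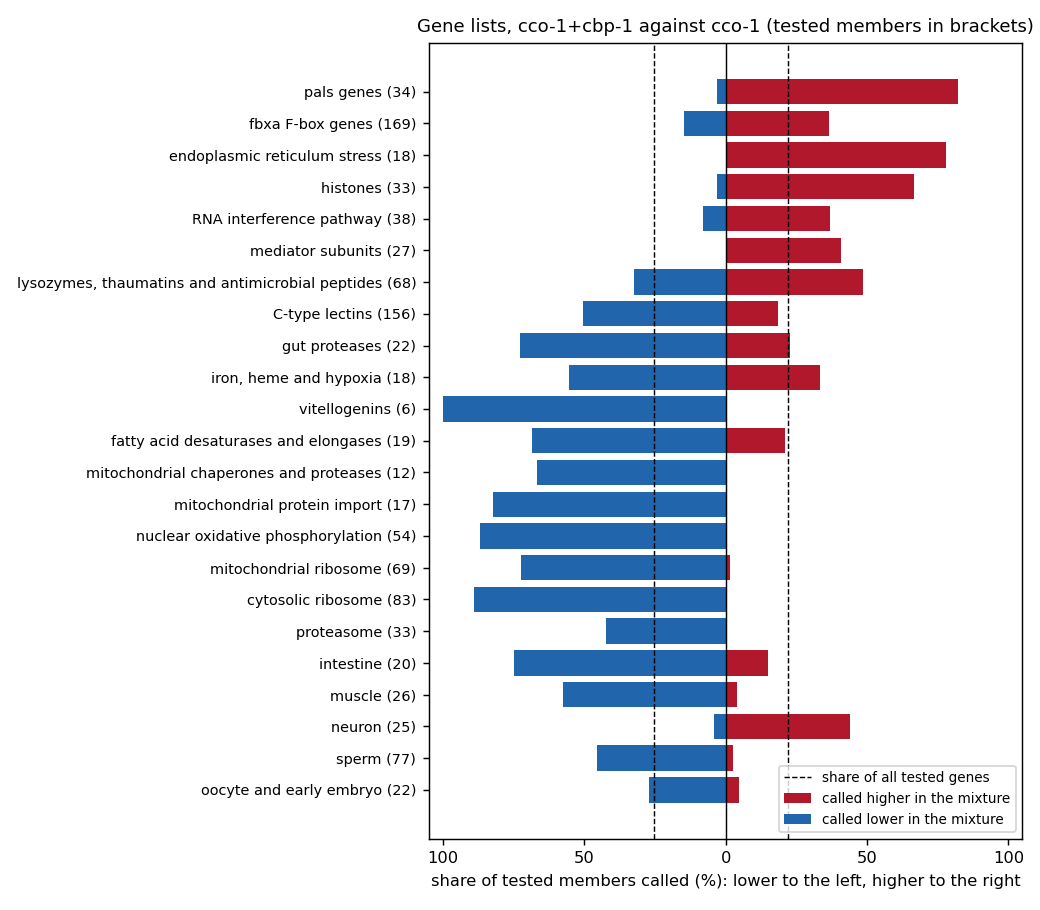
Share of the tested members of 23 gene lists called higher (red, to the right) or lower (blue, to the left) in cco-1 + cbp-1 over cco-1 worms, with the number tested in brackets and dashed lines at the shares over all tested genes (21.9% and 25.3%). The pals genes reach 82.4% higher, and the vitellogenins reach 100% lower.

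Markers of other tissues and stages were mixed. Muscle genes summed to 11332 to 11612 CPM in cco-1 + cbp-1 libraries and 12727 to 13524.5 CPM in cco-1 libraries, with 15 of 26 lower and 1 higher (median -0.21). Neuronal genes summed to 949 to 963 CPM in the mixture and 862 to 883 CPM under cco-1, with 11 of 25 higher and 1 lower (median 0.18). The groups did not overlap in either sum. Germline markers summed to 8722 to 8864 CPM in the mixture and 9412 to 9788 CPM under cco-1 (10 of 22 lower, 3 higher), and oocyte and early embryo genes to 14844 to 15214 CPM in the mixture and 15709.6 to 16295 CPM under cco-1 (6 of 22 lower, 1 higher, median -0.01). The share of oocyte genes called lower was near the 25.3% of all genes, and 4 were higher with only the groups compared. Sperm genes summed to 870.0 to 887 CPM in the mixture and 998 to 1057 CPM under cco-1, with 35 of 77 lower and 2 higher (median -0.27). The major sperm protein genes in that list are near-identical copies. Hypodermal markers summed to 1269 to 1291 CPM in the mixture and 1600.4 to 1628 CPM under cco-1, with 5 of 14 higher and 2 lower (median -0.01), and 5 were lower without a filter on low counts and 4 with only the groups compared. Cuticle collagens summed to 20697 to 21754 CPM in the mixture and 29004 to 30264 CPM under cco-1 (62 of 161 lower, 38 higher), and genes of the molting cycle to 548 to 578 CPM in the mixture and 521 to 553 CPM under cco-1 (10 of 25 higher, 2 lower). Collagen, molting, sperm and oocyte genes follow developmental stage, and the part of stage or of tissue make-up in the results above was not tested.

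The effect of the cbp-1 clone was then set against its effect in worms without a mitochondrial clone, that is cbp-1 against ev. The difference between these effects was called in 4088 genes (24.9%), 1582 (9.63%) with a higher and 2506 (15.2%) with a lower effect under cco-1. Higher and lower refer here to the signed log2 change, so a gene that fell less has a higher effect and a gene that rose less a lower one. The labels give no share of the clone for the cbp-1 group, so the amount of clone may differ between these arms. The vitellogenins showed the difference most plainly, since all 6 had a higher effect under cco-1, where they fell less. The gene vit-3 was at 149.9, 142 and 148 CPM in cco-1 + cbp-1 worms and 219, 251 and 246 CPM in cco-1 worms. In cbp-1 worms it was at 273, 243 and 263 CPM, and in ev worms at 3461, 3666 and 3542 CPM. The fall was 0.70 under cco-1 and 3.78 against ev, a difference of 3.07 ± 0.07 (adjusted p = 2.34e-28). 

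The cadmium-responsive gene cdr-4 reversed between the arms. It fell by 0.71 under cco-1, with 246, 245 and 244 CPM in cco-1 + cbp-1 worms and 419.7, 394 and 389 CPM in cco-1 worms. It rose by 2.56 in cbp-1 worms, with 151, 146 and 139 CPM in cbp-1 worms and 25.98, 23.5 and 24.8 CPM in ev worms. The difference was -3.26 ± 0.07 (adjusted p = 1.6e-30). The gene T01D3.6 did likewise (-1.74 under cco-1, 1.07 without it, difference -2.81 ± 0.06, adjusted p = 1.88e-32). The gene lys-7 rose in both, by 3.93 under cco-1 and 1.56 without it (difference 2.37 ± 0.06, adjusted p = 7.3e-28). Among the 12 chaperone and protease genes, 7 had a lower effect under cco-1 and 0 a higher one, beside 15.2% and 9.63% of all genes. For hsp-6 the falls of 0.50 under cco-1 and 0.30 without it differed by -0.20 ± 0.07 (adjusted p = 0.0217). Other stress genes gave larger differences, such as cyp-14A4 (-2.89 ± 0.19, adjusted p = 9.24e-16) and acs-2 (-2.04 ± 0.11, adjusted p = 1.39e-13). However, cyp-14A4 was scarce without a mitochondrial clone, at 1.65, 1.69 and 1.83 CPM in ev worms and 1.03, 1.41 and 1.44 CPM in cbp-1 worms. Its level there left little room for a fall. B0205.13 rose by 3.56 without cco-1 and by 1.04 under it (difference -2.52 ± 0.12, adjusted p = 2.02e-17). Among 77 sperm genes, 51 had a lower effect under cco-1. In sum they held 1181 to 1203 CPM in cbp-1 libraries and 975 to 1007 CPM in ev libraries.

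A second mitochondrial clone gave a close counterpart. The gene mrps-5 encodes a protein of the mitochondrial ribosome, and the same share of cbp-1 clone was added to it. That comparison shares no library with the main one, and 7040 genes (42.8%) were called in it. Of the genes called in either comparison, 5609 were called the same way in both, which is 72.3% of the calls under cco-1 and 79.7% of those under mrps-5, and 53 were called in opposite ways. Over 9618 genes with a mean of at least 5 CPM, the changes in the 2 arms had a Pearson r of 0.944 and a Spearman rho of 0.872, a description across genes, which are not independent replicates. The difference between the arms was called in 902 genes (5.49%), 588 (3.58%) with a higher and 314 (1.91%) with a lower effect under cco-1.

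**Figure D5:**
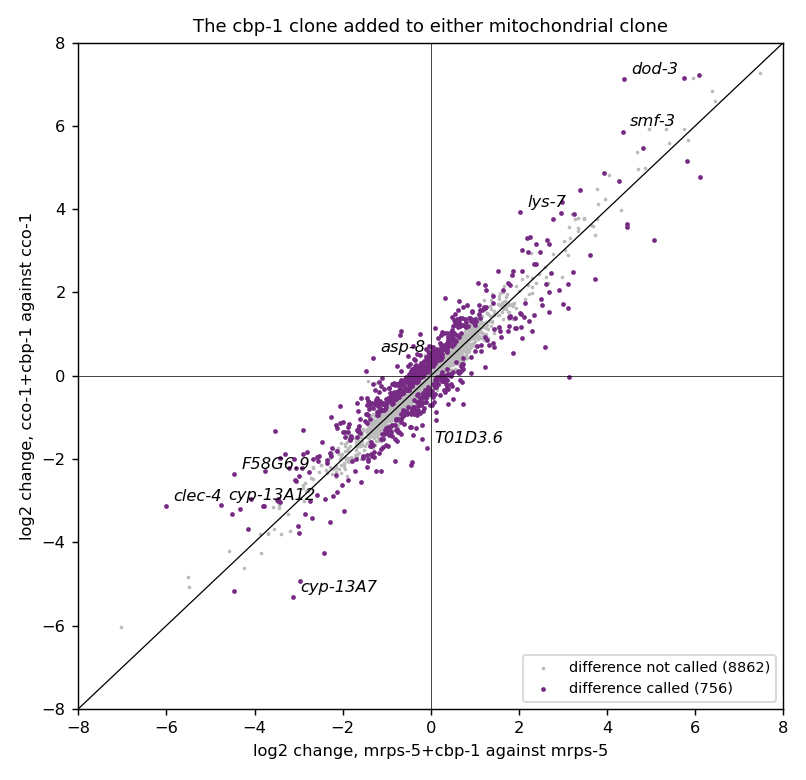
Each point is 1 of 9618 genes, with the log2 change from adding cbp-1 to cco-1 (vertical) against that from adding it to mrps-5 (horizontal). Points follow the diagonal, purple points (756) are genes whose difference was called, and 1 gene lies outside the range drawn.

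The genes that differed between the arms held several of the strong responders. The gene asp-8, an aspartyl protease gene, rose under cco-1 by 0.44 and fell under mrps-5 by 1.31, with 166, 163 and 160.4 CPM in cco-1 + cbp-1 worms and 122, 122 and 118.95 CPM in cco-1 worms. Its levels were 45.7, 47.7 and 41.4 CPM in mrps-5 + cbp-1 worms and 112, 111 and 112 CPM in mrps-5 worms (difference 1.75 ± 0.07, adjusted p = 1.53e-21). The gene thus lay above its single-clone level in one arm and below it in the other. T01D3.6 fell by 1.74 under cco-1 and had a change of -0.09 ± 0.04 (adjusted p = 0.0565) under mrps-5 (difference -1.65 ± 0.05, adjusted p = 5.76e-24). F58G6.9, now chca-1, fell by 2.36 under cco-1 and 4.46 under mrps-5 (difference 2.1 ± 0.09, adjusted p = 1.45e-20). The lysozyme gene lys-7 rose by 3.93 under cco-1 and 2.03 under mrps-5 (difference 1.9 ± 0.07, adjusted p = 8.12e-24). Of the stress reporters, 9 of 18 had a higher effect under cco-1 and 1 a lower one, and of 22 gut proteases 13 and 5. In this test 0 of the 12 chaperone and protease genes was called by edgeR, 0 also at an unadjusted p under 0.05, and hsp-6 gave -0.06 ± 0.07 (adjusted p = 0.746).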

How the data were processed

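Whole-worm poly(A) libraries of 9 RNAi feeding groups, 3 each, were compared as per the labels. Per the submitters' processing notes, the authors aligned reads with STAR 2.6.0a and counted them per gene with HTSeq 0.10.0 on WBcel235; the sources used here do not give its strand and ambiguity settings. The deposited values are raw counts per gene for 46738 genes, of which 43719 matched the name table. Gene counts summed to 20672073 to 30938572 per library, and summary lines held 8.71% to 17.0% of reads and were left out.

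Genes were filtered with filterByExpr by group (minimum count 10; 16435 kept) and tested in R 4.3.3 with edgeR 4.0.16 (TMM, robust quasi-likelihood fits over all 27 libraries, 1 coefficient per group), calling at a Benjamini-Hochberg adjusted p under 0.05. The difference tests are contrasts of the same fit. Intervals on counts of low genes are exact and cover counting error only. The steps were checked on simulated data.

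The compared groups and the 48 gene lists, written from general knowledge (12 list names matched no single gene), were chosen with earlier results of these data known. Named genes are cbp-1, cco-1 and their relatives, the 12 chaperone and protease genes, the 4 called members with the lowest adjusted p in any list, the 12 largest rises and falls with at least 5 CPM and no overlap, and 4 genes per difference test. Family counts, and genes the text says were picked once values were known, fall outside that rule, as do counts of adjacent genes. Alternatives were RLE or upper-quartile factors, DESeq2 1.42.0, no filter or a stricter one (5 CPM in 3 libraries), fewer libraries in the fit, a replicate block, leaving out each library, and a threshold on size. Sequences were not used here.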

Additional observations from a re-analysis of the deposited data

Results flagged for a closer look

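With 3 libraries per group, single libraries were not examined as outliers. The results below are those whose effect of the cbp-1 clone differed between arms of the study by a test of the difference itself (edgeR quasi-likelihood contrast, Benjamini-Hochberg adjusted p over all 16435 genes, log2 scale, 3 libraries per group).

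Between cco-1 worms and worms without a mitochondrial clone, the effect differed in 4088 genes. Here too, higher and lower refer to the signed log2 change, so a gene that fell less has a higher effect and a gene that rose less a lower one. All 6 vitellogenin genes had a higher effect under cco-1, that is, they fell less there, and vit-3, a yolk protein gene, differed by 3.07 (adjusted p = 2.34e-28). A lower effect under cco-1 was seen in 51 of 77 sperm genes and in 7 of 12 chaperone and protease genes, beside 15.2% of all genes. A higher one was seen in 1 sperm gene and 0 chaperone and protease genes, beside 9.63% of all genes. The 7 included dnj-10 (-0.37, adjusted p = 7.43e-07) and hsp-6 (-0.20, adjusted p = 0.0217). Stress genes with a lower effect under cco-1 were cyp-14A4 (-2.89, adjusted p = 9.24e-16), B0205.13 (-2.52, adjusted p = 2.02e-17), hsp-16.2 (-2.39, adjusted p = 9.57e-11), acs-2 (-2.04, adjusted p = 1.39e-13) and clec-4 (-1.25, adjusted p = 1.94e-05). Of these, B0205.13 rose in both arms, but less under cco-1. Others were cyp-13A7 (-5.71, adjusted p = 5.78e-13), cdr-4 (-3.26, adjusted p = 1.6e-30), T01D3.6 (-2.81, adjusted p = 1.88e-32) and hrg-3 (-2.21, adjusted p = 5.37e-07). In ev worms cyp-13A7 was at 0.455, 0.165 and 0.381 CPM, hsp-16.2 at 0.875, 1.11 and 0.839 CPM and cyp-14A4 at 1.65, 1.69 and 1.83 CPM. Such low levels left little room for a fall without a mitochondrial clone. The relatives of cbp-1 rose less under cco-1, F40F12.7 with -2.32 (adjusted p = 2.89e-26) and cbp-2 with -0.30 (adjusted p = 0.00444). A higher effect under cco-1 was found for dod-3 (2.45, adjusted p = 1.68e-05), lys-7 (2.37, adjusted p = 7.3e-28), smf-3 (2.23, adjusted p = 1.49e-18) and tbh-1 (1.61, adjusted p = 1.59e-16), the last of which fell less.

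Between cco-1 and mrps-5 worms, the effect differed in 902 genes. It was higher under cco-1 for 9 of 18 stress reporters and lower for 1. Of 22 gut proteases, it was higher for 13 and lower for 5. Over all tested genes, 3.58% had a higher and 1.91% a lower effect. Named genes with a higher effect were clec-4 (2.87, adjusted p = 4.43e-17), dod-3 (2.73, adjusted p = 1.93e-05), F58G6.9 (2.1, adjusted p = 1.45e-20), lys-7 (1.9, adjusted p = 8.12e-24), asp-8 (1.75, adjusted p = 1.53e-21), smf-3 (1.50, adjusted p = 1.7e-11), cyp-14A4 (1.2, adjusted p = 9.64e-10) and vit-3 (0.74, adjusted p = 9.44e-10). Those with a lower effect were cyp-13A7 (-2.19, adjusted p = 0.00269), hrg-3 (-1.83, adjusted p = 0.000152), hsp-16.2 (-1.69, adjusted p = 6.11e-07), T01D3.6 (-1.65, adjusted p = 5.76e-24), tbh-1 (-0.69, adjusted p = 3.6e-07) and F40F12.7 (-0.65, adjusted p = 1.47e-09). In mrps-5 worms cyp-13A7 was at 2.33, 2.15 and 2.26 CPM, hrg-3 at 2.83, 3.38 and 2.42 CPM and hsp-16.2 at 1.58, 1.67 and 1.52 CPM. Their means in cco-1 worms were 12.2, 17.9 and 15.2 CPM. The low levels in mrps-5 worms limit how far a fall could be measured there.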

How the results depend on the processing

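The main comparison gave 7761 calls, and its count, that of the rises and that of the falls stayed within 1.5 times under every scaling, filter, test and choice of libraries tried, with 6032 calls under the stricter filter and 8564 with only the groups compared at the ends. DESeq2 gave 7295 calls, 3543 higher and 3752 lower. Asking for a change of at least 1 in size left 1823 calls, by the construction of that threshold. Leaving out each library gave 6980 to 7103 calls, 3194 to 3264 higher and 3738 to 3859 lower. The difference from worms without a mitochondrial clone ranged over 3129 to 5326 calls (3548 to 3877 without each library), and that between the mitochondrial clones over 850 to 1251 (715 to 863). Replicate numbers did not pair the libraries, since the deviations of same-numbered libraries correlated at -0.02, -0.02 and -0.08 across genes. A replicate block gave 7726 calls, with 4060 and 901 for the 2 differences. No named gene changed sign where it was called. The genes nduo-6, ctc-3, K07A3.3 and haf-1 lost their call under at least 1 alternative, and tdc-1, D2030.2, C34B2.6, clpp-1 and rpl-37 gained one. Under the stricter filter, which tests fewer genes, the falls among C-type lectins were 37 in place of 79, the rises and falls among fbxa genes 32 and 7 in place of 62 and 25, those among nuclear hormone receptors 47 and 25 in place of 72 and 43, falls among cytochrome P450 genes 18 in place of 29 among glutathione transferases 8 in place of 13 and among neuropeptides and insulins 8 in place of 15. Other list counts that moved by over 1.5 times were of 5 or fewer genes, or stand beside their result above. Each gene's spread is estimated over all fitted groups together, so with 2 libraries left in a group it rests mostly on the other groups. Genes near the filter limit are measured least precisely.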
